A study of Mus musculus with 8 samples.

Results

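The 10 genes described here encode enzymes that make serine, one-carbon units, asparagine and proline: Phgdh, Psat1, Psph, Shmt1, Shmt2, Mthfd2, Mthfd1l, Asns, Aldh18a1 and Pycr1. They were taken by gene symbol from the 54232 gene rows of the expression table, and all 10 were found and passed the filter on low values. The study treated cells of C57BL/6 background, labelled female germline stem cells (FGSC, dividing germ cells of the ovary kept in culture), with C28 for 3 h; C28, also written 028, is a code name, and the labels do not say what the compound is. Its title names autophagy after C28 as the question. The groups were 3 RNA libraries of C28-treated cells and 3 RNA libraries of cells given the solvent DMSO. Both groups have the same background and cell label, and no dose, age or passage is given in the labels. Nothing in the labels tells whether replicates were separate cultures, so the p-values cover the spread of these 6 libraries alone, and that spread may be technical.

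The libraries held 16930212 to 17428321 reads on genes with C28, against 18613916 to 19197376 with DMSO. Values are normalized counts, that is reads divided by 1 size factor per library. The germ cell label was checked against 12 germline markers, of which 5 averaged at least 10 normalized counts. These were Tex14 (526), Ifitm3 (201), Piwil2 (85.0), Dnd1 (32.7) and Zbtb16 (27.1). Ddx4, the germ cell RNA helicase, had 4 reads in all 6 libraries together, Dazl had 1, and Pou5f1, Dppa3 and Mael had 0. Of 14 mast cell and leukocyte markers, 9 averaged at least 10. In the same list Fcer1a and Tpsb2 had 0 reads in all 6 libraries together, Ms4a2 had 3 and Mcpt4 had 4. The summed level of the mast cell and leukocyte markers was 61273 to 65412 with C28, against 64453 to 69946 with DMSO. Kit, Gata2, Ptprc and Cpa3 carried most of it. The summed fibroblast markers spanned 1121 to 2811 with C28, against 1069.5 to 2700.4 with DMSO. The part of other cell types in the results was not tested, and in such bulk samples a change in the mix of cells and a change in RNA per cell cannot be told apart.

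Serine is made from the glycolytic intermediate 3-phosphoglycerate in consecutive steps by Phgdh, Psat1 and Psph. Serine hydroxymethyltransferases, Shmt1 in the cytosol and Shmt2 in mitochondria, turn serine into glycine and pass a one-carbon unit to folate. Inside mitochondria Mthfd2 then oxidizes that unit and Mthfd1l releases it as formate. Formate supplies purine and thymidylate synthesis in the cytosol. Asns makes asparagine from aspartate and glutamine, and Aldh18a1 and Pycr1 make proline from glutamate. Many of these genes are known targets of ATF4, the transcription factor translated when amino acids run short or when the endoplasmic reticulum or mitochondria are stressed.

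ATF4 binds DNA as a partner of C/EBP proteins at composite elements, so the promoters of the 10 genes were searched for that element and for the elements of NRF2 and MYC. RefSeq promoter windows (build GRCm38.p6, 250 bases before to 50 after the annotated start) matched all 10 symbols, with 11 windows because Psat1 has 2. The C/EBP-ATF composite element, TGATGNAA on either strand, was in 2 of these 11 windows, those of Asns and Pycr1, and in 3.97% of all 32817 windows. The antioxidant response element core, TGACNNNGC, was in 3 windows (Phgdh, Psph and Asns) and in 12.4% of all. The E-box CACGTG was in 1 window, that of Aldh18a1, and in 7.15% of all. No matches of different motifs overlapped in the windows of these genes. A match is only these letters in this window and was not tested as a binding site. The windows of Asns, Pycr1 and Psph are shown, since they belong to 3 of the 4 genes that passed the paired test given below and hold a match. Mthfd2, which also passed, holds none, while Phgdh and Aldh18a1 hold a match and did not pass. Windows picked by that result cannot tell whether matches go with it. Capitals mark the matches, composite at -23 and, on the opposite strand, antioxidant core at -172 in Asns (chr6:7693160-7693459, minus strand), composite at -103 in Pycr1 (chr11:120643699-120643998, minus strand), and antioxidant core on the opposite strand at 5 in Psph (chr5:129787204-129787503, minus strand), each counted from the annotated start to the first base of the match.
Asns: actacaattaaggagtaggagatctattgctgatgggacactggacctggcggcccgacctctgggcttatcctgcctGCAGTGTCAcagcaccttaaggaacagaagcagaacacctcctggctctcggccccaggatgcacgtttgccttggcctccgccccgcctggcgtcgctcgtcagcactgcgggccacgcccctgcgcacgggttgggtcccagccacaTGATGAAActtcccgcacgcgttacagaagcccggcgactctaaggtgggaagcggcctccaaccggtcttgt
Pycr1: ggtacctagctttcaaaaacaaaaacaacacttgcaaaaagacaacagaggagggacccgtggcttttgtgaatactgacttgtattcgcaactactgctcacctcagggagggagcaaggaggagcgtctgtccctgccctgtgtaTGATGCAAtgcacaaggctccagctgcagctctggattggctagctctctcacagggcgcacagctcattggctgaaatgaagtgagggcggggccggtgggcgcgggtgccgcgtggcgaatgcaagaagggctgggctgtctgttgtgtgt
Psph: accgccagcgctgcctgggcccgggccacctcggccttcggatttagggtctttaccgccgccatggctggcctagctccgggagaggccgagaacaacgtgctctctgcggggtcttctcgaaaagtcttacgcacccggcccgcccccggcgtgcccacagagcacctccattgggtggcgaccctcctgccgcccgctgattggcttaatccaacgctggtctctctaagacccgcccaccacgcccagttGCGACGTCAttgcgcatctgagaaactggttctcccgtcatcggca

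C28 was compared with DMSO to find whether RNA of these enzymes moved within 3 h. Asns, Pycr1, Psph and Mthfd2 were each higher with C28 in all 3 same-numbered pairs, by 1.21-fold to 1.46-fold on average. Aldh18a1 and Shmt2 were also higher in all 3 pairs, by 1.10-fold and 1.06-fold. The other genes, Phgdh, Psat1, Shmt1 and Mthfd1l, lay within 0.903-fold to 1.05-fold. The share of all tested genes higher in all 3 pairs was not counted, nor was the share whose groups did not overlap. With limma across all genes and no replicate block, 0 of the 10 genes rose and 0 fell at an adjusted p of 0.05, beside 0.121% of the 19054 tested genes that rose and 0.0157% that fell. At an unadjusted p of 0.05 1 of the 10 genes passed in limma (Mthfd2), beside 1491 of the 19054 tested genes. On the recovered reads, edgeR and DESeq2 without a block called 0 of the 10. The replicate numbers paired the libraries in these data, and with the replicate block 4 of 10 rose (Psph, Mthfd2, Asns and Pycr1), beside 2.55% of all tested genes. In limma with the block 0 fell, also at an unadjusted p of 0.05, beside 2.25% of all. edgeR and DESeq2 with the block called the same 4 genes as risen. There edgeR called 3.71% of the 19054 genes as risen, and DESeq2 3.50% of the 11296 to which it gave an adjusted p. Both called 0 of the 10 as fallen, beside 625 and 346 genes in all. At an unadjusted p of 0.05 edgeR with the block passed 6 of the 10, beside 3409 of the 19054, not counted by direction. All calls with the block rested on 3 pairs. Without pair 2 or without pair 3, limma with the block called 0 of the 10 genes. At an unadjusted p of 0.05 these fits passed 6 and 4 of the 10, beside 2157 and 2528 of the 19054 tested genes. Without pair 1 limma with the block called 5, namely Psph, Mthfd2, Asns, Pycr1 and Psat1 (adjusted p 0.0422 for Psat1). The authors' deposited table, whose lowest adjusted p among the 10 genes was 0.340 for Mthfd2, called none of them at 0.05. The median log2 fold change of the 10 genes was 0.11, with 7 above 0, beside a median of 0.00 and 9711 of 19054 above 0 over all tested genes.

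**Figure D1:**
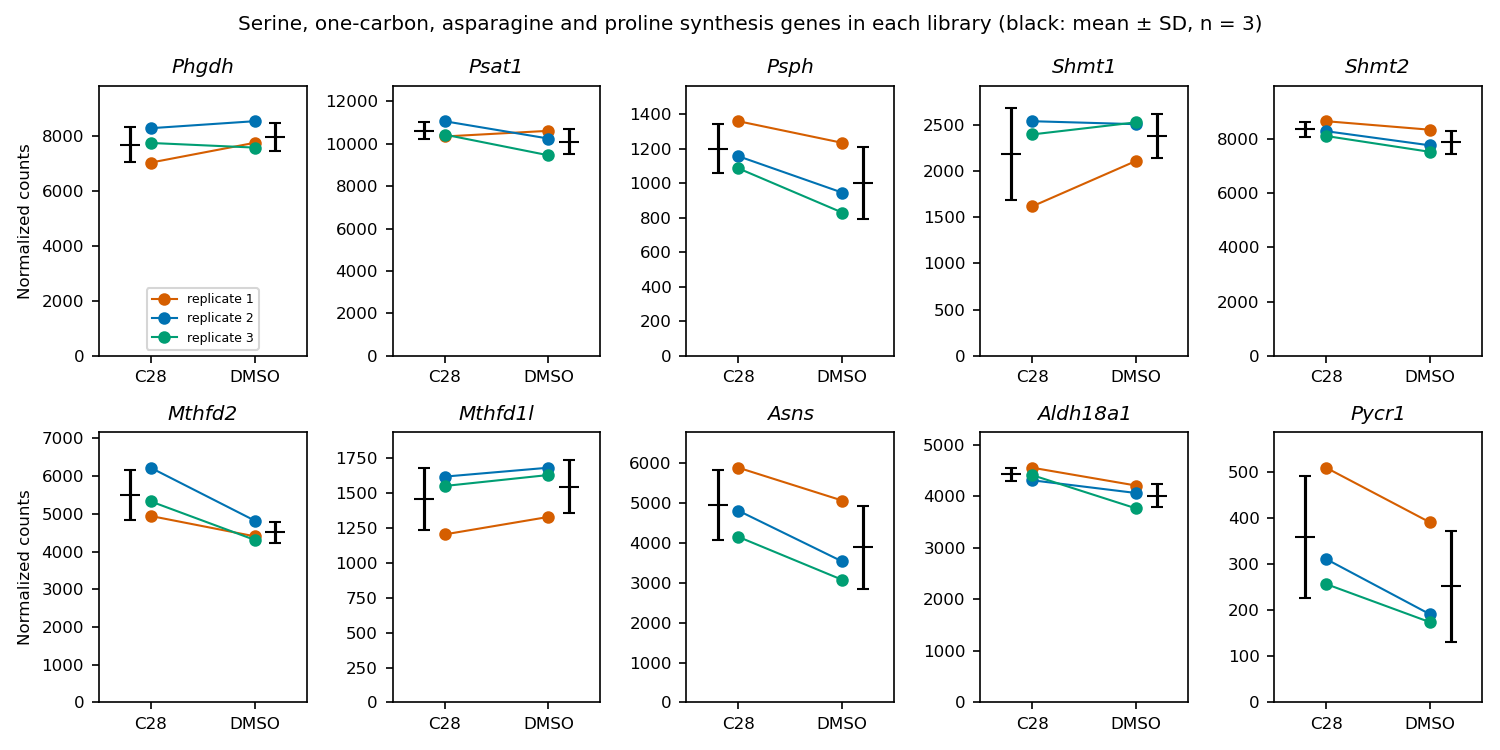
Normalized counts of the 10 genes in each of the 6 RNA libraries, 1 panel per gene, with C28 left of DMSO; points are libraries, colours mark the replicate number, lines join same-numbered libraries, and bars show the group mean and SD. Mthfd2 and Aldh18a1 have all 3 C28 libraries above all 3 DMSO libraries, while in Asns and Pycr1 replicate 1 is the highest library of either group. How many of all tested genes have no such overlap was not counted.

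Of the serine synthesis enzymes, only the last step, Psph, passed the test with the block. Phgdh, which oxidizes 3-phosphoglycerate in the first step, had 7022, 8272 and 7737 normalized counts in C28 replicates 1 to 3, against 7742, 8527 and 7569 with DMSO. The groups overlapped, with replicate 2 highest in both. The fold was 0.965 (95% confidence interval 0.900 to 1.04 with the block, adjusted p 0.956 without and 0.616 with it, limma). Mouse has a pseudogene, Phgdh-ps1, and reads that Phgdh shares with it may have been split. Psat1, the aminotransferase of the following step, had 10336, 11056 and 10427 normalized counts with C28, against 10602, 10239 and 9450.1 with DMSO. Its groups overlapped through DMSO replicate 1, and its fold of 1.05 (0.979 to 1.13) had adjusted p-values of 0.885 and 0.462 in limma without and with the block.

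Psph, the phosphatase that releases serine, had 1358, 1156 and 1085 normalized counts with C28, against 1233, 945 and 829 with DMSO. The groups overlapped only because DMSO replicate 1 exceeded C28 replicates 2 and 3. Within pairs the C28 library was 1.10-fold, 1.22-fold and 1.31-fold the DMSO library. The log2 fold change was 0.27 ± 0.15 (SE) without the block and ± 0.06 with it, a fold of 1.21 (1.10 to 1.33). Its limma adjusted p was 0.762 without the block and 0.0342 with it, 0.0110 with edgeR and 0.0478 with DESeq2, both with the block. The promoter of Psph shown above holds the antioxidant core just after the annotated start.

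The serine hydroxymethyltransferases did not pass in either fit. Mitochondrial Shmt2 had 8639.7, 8272 and 8095 normalized counts with C28, against 8326, 7750.4 and 7511 with DMSO. Each C28 library exceeded its same-numbered DMSO library, by 1.04-fold to 1.08-fold, although the groups overlapped. The average fold was 1.06 (0.997 to 1.13), with limma adjusted p-values of 0.854 without and 0.302 with the block. Cytosolic Shmt1 had 1616, 2536 and 2393 normalized counts with C28, against 2107, 2504 and 2523 with DMSO. C28 replicate 1 was lowest of all 6, and without that library the log2 fold change of Shmt1 was 0.056 in place of -0.15. Its fold was 0.903 (0.810 to 1.01), with adjusted p-values of 0.927 and 0.307.

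Of the mitochondrial folate enzymes, Mthfd2 rose with the block and Mthfd1l did not pass. Mthfd2, the dehydrogenase and cyclohydrolase, had 4942, 6222 and 5329 normalized counts with C28, against 4403, 4822 and 4309 with DMSO. All 3 C28 libraries lay above all 3 DMSO libraries, with replicate 2 highest in both. The means were 5498 ± 656 with C28 and 4511 ± 273 with DMSO (SD, n = 3 each), a fold of 1.21 (1.13 to 1.31). The limma adjusted p was 0.515 without the block and 0.00895 with it, and with the block 0.000572 in edgeR and 0.000247 in DESeq2. Mthfd1l, which releases formate in the last mitochondrial step, had 1205, 1619 and 1552 normalized counts with C28, against 1330.3, 1683 and 1631 with DMSO. Each C28 library was slightly below its same-numbered DMSO library, at 0.906-fold to 0.962-fold, and the groups overlapped. The fold was 0.939 (0.868 to 1.02), with limma adjusted p-values of 0.953 and 0.406.

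The count ratio of Mthfd2 to Mthfd1l within a library was 4.10, 3.84 and 3.43 with C28, against 3.31, 2.86 and 2.64 with DMSO. Such ratios are of counts, not of molecules, since transcript lengths differ, and only their change between groups is read. The ratio was 1.29-fold higher with C28 with no overlap, and the exact permutation test gave a two-sided p of 0.1, the smallest that 3 against 3 allows. Against Mthfd1, the cytosolic enzyme that runs the same steps, the count ratio of Mthfd2 was 1.37, 1.28 and 1.14 with C28, against 0.971, 0.933 and 0.824 with DMSO (1.38-fold, exact permutation p 0.1). The ratio of Shmt2 to Shmt1 was 5.35, 3.26 and 3.38 with C28, against 3.95, 3.10 and 2.98 with DMSO. These overlapped (unpaired exact permutation p 0.5), although within pairs the C28 ratio was 1.35-fold, 1.05-fold and 1.14-fold the DMSO ratio. The count ratios of Psat1 to Phgdh, Psph to Phgdh and Asns to Aldh18a1 overlapped between groups as well (exact permutation p 0.3 each), and each was higher with C28 in all 3 pairs, by 1.07-fold to 1.11-fold, 1.21-fold to 1.28-fold and 1.07-fold to 1.28-fold. In all, 6 such ratios were computed and none could reach an adjusted p of 0.05.

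Asns, asparagine synthetase, had 5888, 4809.5 and 4153 normalized counts with C28, against 5063, 3535 and 3074 with DMSO. Replicate 1 was highest in both groups, and DMSO replicate 1 exceeded C28 replicates 2 and 3, so the groups overlapped. Within pairs the C28 library was 1.16-fold, 1.36-fold and 1.35-fold the DMSO library. The log2 fold change of 0.37 had an SE of 0.20 without the block and 0.05 with it, and the fold was 1.29 (1.19 to 1.40). Its limma adjusted p was 0.747 without the block and 0.00322 with it, and with the block 5.4e-05 in edgeR and 2.26e-06 in DESeq2. The authors' deposited table gives Asns a log2 fold change of 0.23 and an adjusted p of 0.791. Whether that log2 fold change is on the same scale as the limma estimate was not checked. The composite element in its promoter, shown above, lies close to the annotated start.

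Proline synthesis begins with Aldh18a1, which makes pyrroline-5-carboxylate from glutamate. Aldh18a1 had 4551, 4307 and 4407 normalized counts with C28, against 4205, 4060.3 and 3761 with DMSO. The C28 libraries all lay above the DMSO libraries. The fold was 1.10 (1.03 to 1.19), and its limma adjusted p of 0.666 without the block and 0.124 with it did not pass. Pycr1, the mitochondrial reductase that finishes proline, had 509.5, 311 and 257 normalized counts with C28, against 391, 191 and 174 with DMSO. Only DMSO replicate 1, above C28 replicates 2 and 3, made the groups overlap. Within pairs the C28 library was 1.30-fold, 1.62-fold and 1.47-fold the DMSO library, and the average of 1.46 (1.26 to 1.69) was the highest of the 10 genes. The limma adjusted p was 0.807 without the block and 0.00895 with it, and with the block 0.000976 in edgeR and 0.0106 in DESeq2.

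**Figure D2:**
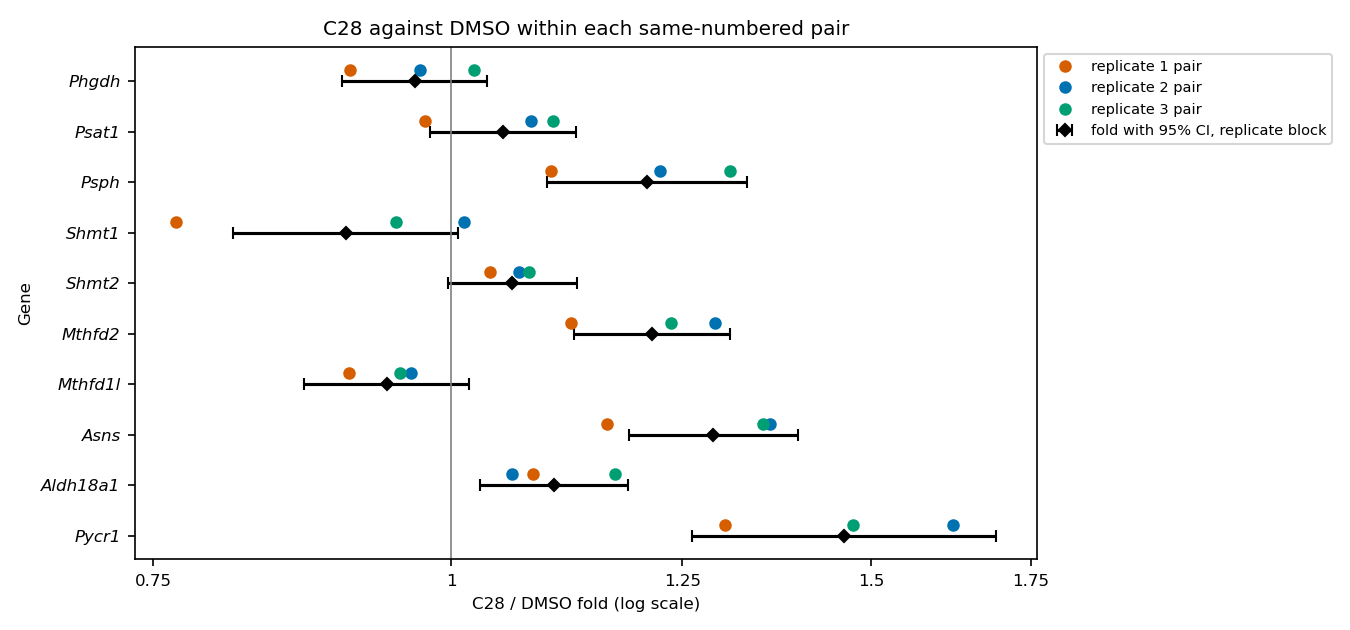
Fold of C28 over DMSO within each same-numbered pair (coloured points) and the average fold with its 95% confidence interval from limma with the replicate block (black), on a log axis, 1 row per gene. Pycr1, Asns, Psph and Mthfd2 have all 3 pairs above 1, between 1.10 and 1.62, as do Aldh18a1 and Shmt2 between 1.04 and 1.17, while Shmt1 spans 0.767 to 1.01.

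Replicate 1 was set against replicates 2 and 3 with earlier results of these data known, and on the same libraries. The p-values of this contrast are therefore descriptive and cannot decide whether replicate 1 differs beyond chance. By them, 5 of the 10 genes were called. In a limma fit with the arm as a term, 3 of 10 were higher in replicate 1 (Psph, Asns and Pycr1), beside 9.51% of the 19054 tested genes, and 2 of 10 were lower (Shmt1 and Mthfd1l), beside 10.1%. Pycr1 averaged 450.1 normalized counts in replicate 1 and 233 in replicates 2 and 3, a log2 difference of 0.97 ± 0.11 (SE, adjusted p 0.000145). Asns averaged 5476 in replicate 1 and 3893 in the others (0.51 ± 0.08, limma adjusted p 0.000904). Psph averaged 1296 in replicate 1 and 1004 in the others (0.38 ± 0.08, limma adjusted p 0.00471). For these 3 genes the direction in replicate 1 was that of C28, while Mthfd2, which rose with C28, had a log2 difference of -0.14 in replicate 1 (limma adjusted p 0.237).

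Shmt1 averaged 1861 normalized counts in replicate 1 and 2489 in the others, a log2 difference of -0.43 ± 0.07 (limma adjusted p 0.00192). Mthfd1l averaged 1268 in replicate 1 and 1621 in the others (-0.36 ± 0.06, limma adjusted p 0.00122). These calls rested on both replicate 1 libraries, since without DMSO replicate 1 only 1 gene was higher (Pycr1), and without C28 replicate 1 Psph was no longer called (limma adjusted p 0.0527) and none was lower (0.0528 for Mthfd1l and 0.0805 for Shmt1). Marker sums of replicate 1 lay outside the range of the others in all 4 lists, by the least for mast cell and leukocyte markers. Fibroblast markers summed to 1069.5 to 1121 in replicate 1, against 1726 to 2811 in replicates 2 and 3, and mast cell and leukocyte markers to 65412 to 69946, against 61273 to 65364. Germline markers summed to 779 to 796 in replicate 1, against 870.3 to 987 in the others, and 6 ovarian somatic markers, Foxl2 and Cyp19a1 among them at 0, to 123 to 150.5, against 100.4 to 119. The part of these cell markers in the replicate difference was not tested.

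**Figure D3:**
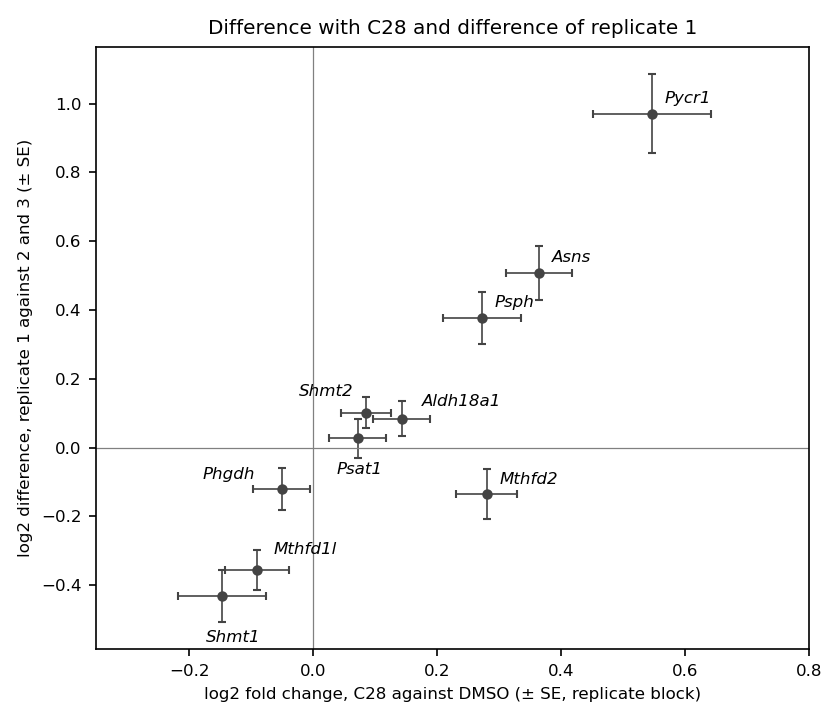
Log2 fold change of C28 over DMSO (horizontal axis) and log2 difference of replicate 1 from replicates 2 and 3 (vertical axis) for the 10 genes, each with its SE. Pycr1, Asns and Psph are positive on both axes, Shmt1 and Mthfd1l are negative on both, and Mthfd2 is positive with C28 and at -0.14 in replicate 1.

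The genes were also compared by how their values varied over the 6 libraries, as the mean absolute difference of log2(value + 1) less each gene's own mean. This distance was not scaled to the range of a gene, so genes that vary little lie close whatever their shape. The log2 range was 0.20 for Shmt2 and 0.27 for Aldh18a1, against 1.54 for Pycr1. Psph and Asns were nearest each other among the 10 genes (0.0803), as were Shmt1 and Mthfd1l (0.0636) and Shmt2 and Aldh18a1 (0.0323). The nearest of the 10 to Pycr1 was Asns (0.206), and the nearest to Mthfd2 was Psat1 (0.106). Among 10562 other genes averaging at least 50 normalized counts, the nearest to Pycr1 was Ddit4 (0.0779), the nearest to Asns was Ghitm (0.0466), the nearest to Psph was Tubd1 (0.0333) and the nearest to Mthfd2 was Clic4 (0.0349). For each of the 10 genes the nearest of these many other genes was nearer than the nearest of the 10. This likeness over 6 libraries reflects both C28 and the replicate number.

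The other enzymes of the same pathways were read against the share of all tested genes that passed limma with the block, 2.55% risen and 2.25% fallen. Of 23 tested folate and one-carbon genes other than the 10, 0 rose and 0 fell in limma, edgeR and DESeq2 without the block, and in limma with it 0 rose and 1 fell, with a median log2 fold change of -0.12 beside 0.00 over all tested genes. At an unadjusted p of 0.05, 2 passed limma without the block and 7 with it, beside 1491 and 3463 of the 19054 tested genes. Sfxn1, the mitochondrial serine carrier, had 3764, 5076 and 5124 normalized counts with C28, against 4479.9, 5843 and 5793 with DMSO, and fell with the block (fold 0.864, limma adjusted p 0.834 without and 0.0178 with it). Mthfd1 had 3617, 4871 and 4691 with C28, against 4534, 5167 and 5231 with DMSO, a fold of 0.877 that did not pass limma with the block (adjusted p 0.0722) but passed edgeR (0.0260) and DESeq2 (0.0495) with it. Slc25a32, the mitochondrial folate carrier, did not pass either (0.866, limma adjusted p 0.0935 with the block). Gldc, the glycine-cleaving decarboxylase, was low at 28.8 ± 10.7 with C28 and 21.2 ± 9.54 with DMSO (SD, n = 3 each).

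Of 20 tested asparagine, aspartate, glutamate and proline genes other than the 10, limma, edgeR and DESeq2 without the block called 0. In limma without the block 4 passed at an unadjusted p of 0.05, beside 1491 of the 19054 tested genes. With the block 1 rose and 2 fell. Prodh, the first enzyme of proline breakdown, had 555, 699 and 670.2 normalized counts with C28, against 811, 854 and 799 with DMSO, and fell with the block (0.778, limma adjusted p 0.427 without and 0.0178 with it). Glul, glutamine synthetase, fell with the block as well (0.819, limma adjusted p 0.508 without and 0.0192 with it). Gpt2, the mitochondrial alanine aminotransferase, had 1238, 1097 and 873 with C28, against 944, 712 and 643 with DMSO, and rose with the block (1.40, limma adjusted p 0.551 without and 0.00208 with it). Oat, which links ornithine to the same proline precursor, averaged 3265 ± 178 with C28 and 3251 ± 163 with DMSO (SD, n = 3 each), a fold of 1.00 (0.938 to 1.07).

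**Figure D4:**
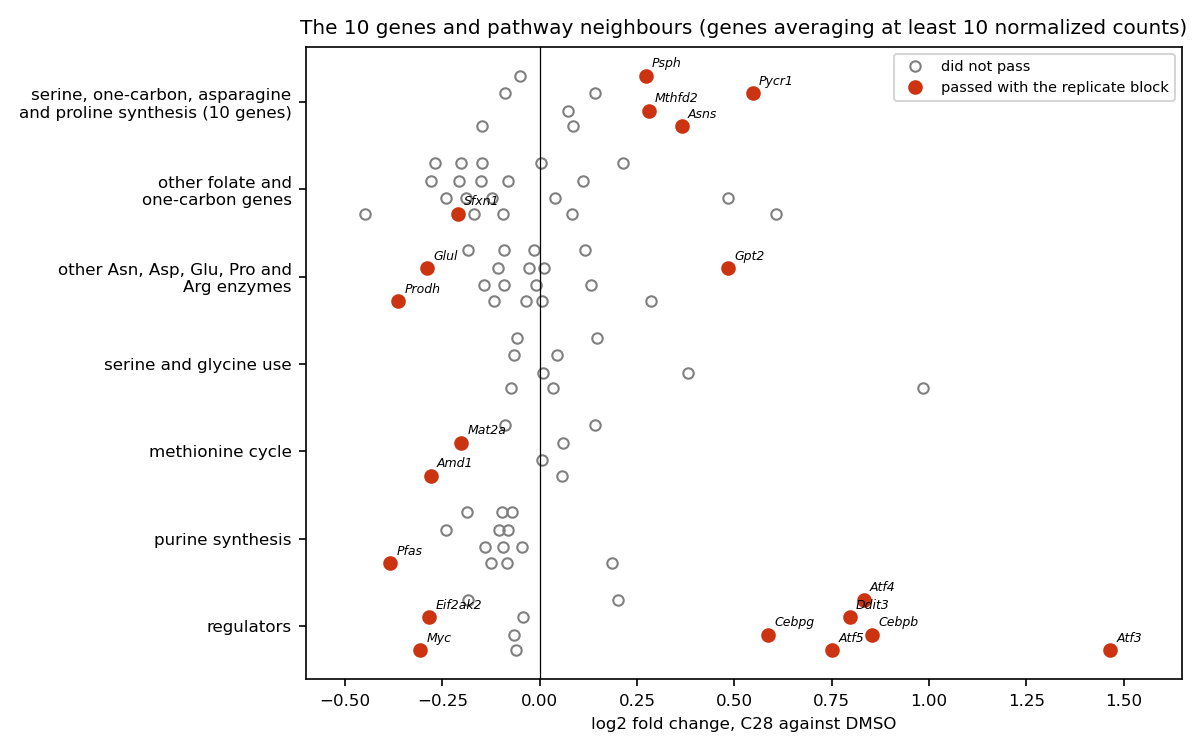
Log2 fold change of C28 over DMSO (horizontal axis) for the 10 genes and for 6 lists of pathway neighbours and regulators averaging at least 10 normalized counts, 1 row per list; filled points passed limma with the replicate block. Pycr1 and Gpt2 passed above 0, Prodh and Glul below it, and in the purine row Pfas passed below 0.

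Enzymes downstream of serine, glycine and one-carbon units were set against the same shares, 2.55% risen and 2.25% fallen of all tested genes with the block. At an unadjusted p of 0.05, 1491 of the 19054 tested genes passed limma without the block and 3463 with it. Of 14 tested genes that use or break down serine and glycine, limma called 0 without and with the block (1 and 3 at an unadjusted p of 0.05), and edgeR and DESeq2 called 0 in both designs. In the methionine cycle 0 of 7 passed limma without the block (1 at an unadjusted p of 0.05; 0 with edgeR and DESeq2), and with it 2 fell. These were Mat2a, which makes S-adenosylmethionine (0.869, limma adjusted p 0.0166 with the block), and Amd1, which decarboxylates it for polyamine synthesis (0.824, 0.0137). In purine synthesis, which consumes formate units, 12 of 13 log2 fold changes were below 0, beside 9343 of 19054 over all tested genes, with a median of -0.10. There 0 passed limma without the block (1 at an unadjusted p of 0.05; 0 with edgeR and DESeq2), and with the block Pfas fell (0.766, 0.710 to 0.826, limma adjusted p 0.00154).

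Among 13 regulators known to bind or raise these genes, 1 rose in limma without the block (Atf4), and with it 6 rose and 2 fell, beside 2.55% and 2.25% of all tested genes. DESeq2 without a block called 4 as risen (Atf4, Atf5, Cebpb and Cebpg), beside 121 of the 13138 genes to which it gave an adjusted p. Atf4 had 12112, 15190.4 and 12577 normalized counts with C28, against 7138, 8022 and 7164 with DMSO, with no overlap (1.78, limma adjusted p 0.0365 without and 5.14e-06 with the block). Without the block that call ended on leaving out any library but C28 replicate 1 (adjusted p up to 0.250). Replicate 2 was highest in both groups for Atf4, Mthfd2, Phgdh and Mthfd1l, of which Phgdh and Mthfd1l did not rise. Asns, Psph and Pycr1 were highest in replicate 1. Whether Atf4 changed the RNA of any of these enzymes was not tested. Atf5 and Cebpg, relatives and partners of Atf4, rose with the block (1.68, limma adjusted p 0.000194, and 1.5, limma adjusted p 0.000603). Myc, which is known to bind promoters of serine and nucleotide synthesis genes, had 7123, 6379 and 6346 with C28, against 8954, 7767 and 7844 with DMSO, and fell with the block (0.809, limma adjusted p 0.354 without and 0.00184 with it). Eif2ak2, a kinase that acts ahead of Atf4 translation, fell too in limma with the block (0.821, adjusted p 0.0223) but did not pass DESeq2 with it (0.0548). Nfe2l2, which encodes NRF2, did not pass limma or DESeq2 with the block (0.880, adjusted p 0.0631 and 0.115) but passed edgeR with it (0.0407).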

How the data were processed

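RNA of 3 C28 and 3 DMSO libraries was analysed, grouped and numbered by the sample titles. Per the submitters' processing notes the build was mm9 and the tools were Bowtie2 and Cufflinks 2.2.1. The labels' protocols name 2 library kits, 1 of which marks strand; whether strand was used in counting is not given in the sources used here, and antisense neighbours may share reads.

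The deposited expression table holds a signal made by the authors from read counts per gene divided by 1 size factor per library: dividing by what 1 read is worth gave a whole number, within 0.01, for 100% of values, and that worth lay between 0.935 and 1.07. The same deposited table carries adjusted p-values and log2 fold changes by the authors. The table itself names 24187 rows, and an identifier table named 29950 more.

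Genes that reached 1 in 3 or more of the 6 libraries (19054, 1 row per symbol) were fitted by limma 3.58.1 (R 4.3.3, trended prior variance) on log2(value + 1), a scale that understates changes of low genes. The Benjamini-Hochberg adjustment ran over all tested genes, with a threshold of 0.05. Printed fold changes are on that scale. The scripts were tested on simulated data. Alternatives were a replicate block, edgeR 4.0.16 (TMM) and DESeq2 1.42.0 on recovered reads, other pseudocounts, filters and scalings, and left-out libraries.

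Pairing was checked over 10578 genes averaging at least 50. Deviations from group means correlated at 0.84, 0.68 and 0.70 between libraries numbered 1, 2 and 3. Differently numbered 2 and 3 correlated at 0.41 and 0.54, and replicate 1 with the others at -0.75 to -0.65. The distance of replicate 1 in both arms by itself lifts the correlations of the other numbers. No label states a pairing.

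Neighbouring genes were named by a rule: those past the threshold without or with the block, at most 3 per list and direction by smallest p, plus 10 chosen by role. Of the neighbours, 2 genes are not reported here and were left out of the lists. The 10 genes, the lists and the tests were chosen with earlier results of these data known. The 2 H3K27ac peak lists (mm9) were not used here, since gene positions of that build were not at hand.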

Additional observations from a re-analysis of the deposited data

How the results depend on the processing

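With the replicate block, 4 of the 10 genes rose in limma, edgeR, DESeq2 and limma after TMM scaling; after quantile scaling 1 did (Asns, adjusted p 0.0412). Leaving out 1 library without the block gave 0, and leaving out pair 1, 2 or 3 with it gave 5, 0 and 0. Over all genes, those that rose numbered 23 in limma, 485 with the replicate block, 707 and 395 with edgeR and DESeq2 and the block, 121 with DESeq2 alone, 472 and 164 with the block after TMM and quantile scaling, 0 to 21 without 1 library, 438, 42 and 142 with the block without pair 1, 2 or 3, and 65 with no block without replicate 1 of both arms. Those that fell numbered 3, 429, 625, 346, 61, 395, 105, 0 to 2, 415, 8, 65 and 26 in the same order. The scalings with the block, and leaving out replicate 1 of both arms with no block, were chosen after seeing the data.

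With the block, limma, edgeR and DESeq2 counted 1, 3 and 2 folate genes that fell, 1, 2 and 1 asparagine to proline genes that rose and 2 each that fell, 2 methionine cycle genes each that fell, 1, 3 and 3 purine genes that fell, and 6 regulators each that rose and 2, 3 and 1 that fell; DESeq2 without a block counted 4 regulators that rose. Genes higher in replicate 1 numbered 1 to 3, and lower 0 to 2, on leaving out 1 library. Without the block, the other pseudocounts, filters and scalings called none of the 10 genes.

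Log2 fold changes turned sign only on leaving out libraries: Phgdh ranged from -0.11 to 0.012, Shmt1 from -0.27 to 0.056, Mthfd1l from -0.20 to 0.042 and Oat from -0.036 to 0.049 (-0.0086 with the block without pair 2), as did the replicate 1 difference of Psat1, from -0.055 to 0.11. The cause was not tested. Peak thresholds and windows at these genes were not run. With 3 libraries a group, the pairing rests on the data alone, and a fold near 1.2 passed only with it.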
